A study of Mus musculus with 4 samples.

Results

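The clustered protocadherin locus of mouse chromosome 18 was described across 4 methylation arrays by the 1414 probes that lie in it, of 520554 probes on the array. The probes were chosen by position alone (chr18:36900175-37981700, mm9, first probe start to last probe end), with no use of their signal. They name 65 genes. The Pcdha subcluster held 252 probes for 12 genes (chr18:37086623-37306138), the Pcdhb subcluster 452 probes for 22 genes (chr18:37419221-37679337) and the Pcdhg subcluster 508 probes for 22 genes (chr18:37816153-37981700). A further 171 probes lay in a flank upstream of Pcdha with 8 genes that are no protocadherins, and 31 probes between Pcdhb and Pcdhg were named for Taf7.

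Clustered protocadherins are cadherin-related adhesion molecules of the cell surface, best known from neurons, where each cell switches on its own choice of variable genes and so carries its own set of proteins. Variable exons of Pcdha and Pcdhg each have a promoter and are spliced to constant exons shared by the subcluster, while Pcdhb genes are single exons with no shared constant part. In neurons the promoters are bound by CTCF and cohesin, and promoters that are not chosen carry DNA methylation, in whose placement Dnmt3b and Smchd1 take part. The C-type genes at the ends of Pcdha and Pcdhg (Pcdhac1, Pcdhac2, Pcdhgc3, Pcdhgc4 and Pcdhgc5) are expressed in most neurons instead of being chosen at random.

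The cells were mouse leukaemic cells grown with interleukins and stem cell factor, in 4 groups of 1 array each: KO with decitabine, WT with decitabine, KO untreated and WT untreated. Treated cells had 20 nM decitabine renewed every 24 h over 3 days, and harvest was at 72 h in each group. Decitabine is a deoxycytidine analogue that, once built into DNA, holds DNA methyltransferases fast on it. The source names give the KO as one of Mll5, a chromatin protein that carries PHD and SET domains, and the genotype field names HOXA9 instead. The labels do not say which part of a gene was deleted, so the genotype was not checked against these data, and DNA arrays give no expression markers for the cell type. An antibody pulled down methylated DNA (MeDIP). That fraction was labelled with Cy3, unselected input DNA with Cy5, and both went onto 1 array of mouse promoters and CpG islands.

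Dyes were never swapped, and each array lay on its own slide, so a slide effect and a group effect cannot be told apart. Each group has 1 array, so no p-value is given for 2 arrays set side by side. Intervals given below are exact 95% binomial intervals and cover counting over probes only. Nothing in the labels says whether the 4 samples came from separate cultures.

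Signal is given on 2 scales. The first is the share of probes whose MeDIP channel was flagged as well above background by the scanner software on at least 1 spot, called bright here. Over all probes of the array it was 10.8% and 9.33% on the KO and WT decitabine arrays, against 2.72% and 2.80% on the KO and WT untreated arrays. The second is the log2 ratio of MeDIP over input, centred on the median of each array, over kept probes, those with input well above background and no outlier flag on all 4 arrays. In the locus 842 of 1414 probes (59.5%) were kept. Where a MeDIP signal was too close to background, the software had put a surrogate value in its place. This held for 36.1% and 35.7% of kept probes of the locus on the KO and WT decitabine arrays, and for 53.8% and 59.1% on the KO and WT untreated arrays, and at such probes the MeDIP term of the ratio is a background level.

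Methylated DNA was recovered most often from Pcdhg and least often from Pcdha and Pcdhb. In Pcdhg, 17.3% of probes were bright on the KO decitabine array (88 of 508, 14.1% to 20.9%), 11.4% on the WT decitabine array (58), 3.15% on the KO untreated array (16) and 2.36% on the WT untreated array (12). In Pcdhb the shares were 7.96% (36 of 452, 5.64% to 10.9%), 4.65% (21), 0.221% (1) and 1.11% (5) in the same order of arrays. In Pcdha they were 4.37% (11 of 252, 2.20% to 7.68%), 5.16% (13), 1.19% (3) and 1.59% (4). Pcdhg thus stood above the array-wide share on the KO decitabine array, where its interval lies above 10.8%, while the Pcdhb and Pcdha shares were below the array-wide share on all 4 arrays. The upstream flank was bright more often than any subcluster, in 22.8%, 16.4%, 6.43% and 5.85% of its 171 probes on the KO decitabine, WT decitabine, KO untreated and WT untreated arrays.

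**Figure D1:**
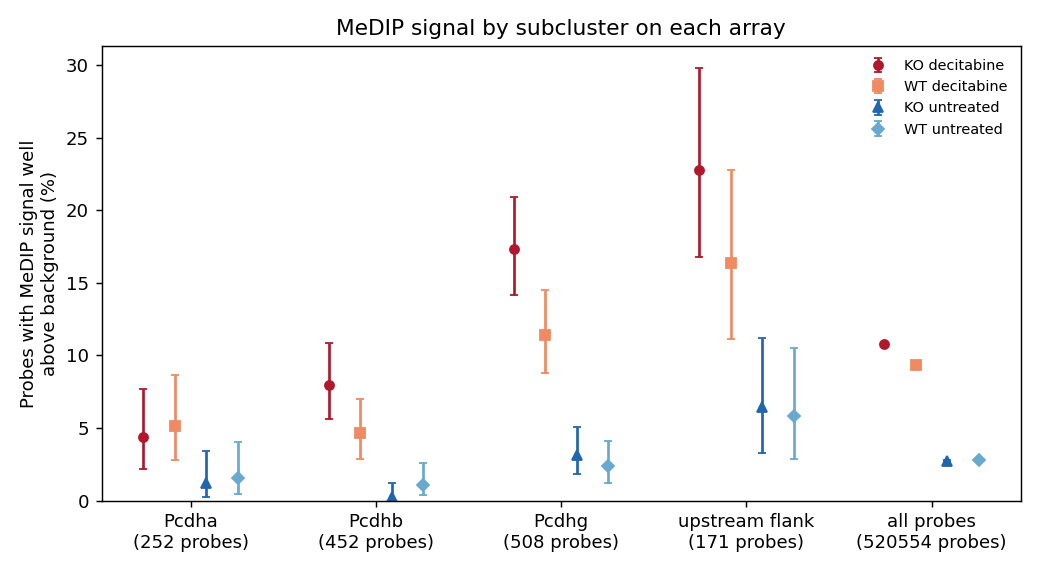
Share of bright probes (%) in each subcluster, in the upstream flank and over all probes; points are single arrays and bars are exact 95% binomial intervals over probes. Pcdhg reaches 17.3% on the KO decitabine array, against 7.96% for Pcdhb and 4.37% for Pcdha on the same array.

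Pcdhg exceeded Pcdha in share of bright probes by 13.0, 6.26, 1.96 and 0.775 percentage points on the KO decitabine, WT decitabine, KO untreated and WT untreated arrays, and exceeded Pcdhb by 9.36, 6.77, 2.93 and 1.26 points. Both differences were positive on 4 of 4 arrays (mean 5.49 ± 5.51 and 5.08 ± 3.67 points, SD, n = 4 arrays). An exact two-sided sign-flip permutation test over the 4 arrays gave p = 0.125 for each, the smallest value that 4 arrays allow, and 0.15 after Benjamini-Hochberg adjustment over the 6 differences tested. Pcdhb and Pcdha were not ordered: Pcdhb was higher by 3.60 points on the KO decitabine array and lower by 0.513, 0.969 and 0.481 points on the WT decitabine, KO untreated and WT untreated arrays (exact p = 1).

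Median log2 ratios followed the order Pcdhg, Pcdhb, Pcdha on every array, and the gaps were wider on the decitabine arrays. Pcdhg had medians of 0.36 and 0.60 on the KO and WT decitabine arrays and of 0.33 and 0.51 on the KO and WT untreated arrays (317 kept probes). Pcdhb had medians of 0.06 and 0.29, against 0.30 and 0.46 untreated (237 kept probes), and Pcdha of -0.28 and 0.10, against 0.17 and 0.28 untreated (147 kept probes). Pcdhg lay above Pcdha by 0.38 ± 0.23, above Pcdhb by 0.17 ± 0.15, and Pcdhb lay above Pcdha by 0.21 ± 0.09 (means over 4 arrays, SD, n = 4). Each was positive on 4 of 4 arrays, with exact sign-flip p = 0.125 and 0.15 after adjustment. On the KO and WT untreated arrays, 49.8% and 55.8% of kept Pcdhg probes held a surrogate MeDIP value. The shares were 54.4% and 59.1% in Pcdhb and 70.7% and 72.8% in Pcdha, so the untreated order rests largely on background levels over input. Without the filter on dim probes the difference between Pcdhg and Pcdhb turned to -0.09. Pcdhb minus Pcdha was 0.06 after loess, 0.11 in bins of CpG density and 0.12 with normexp, a background correction.

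Input signal differed between the subclusters too. It was well above background in 68.9%, 78.1%, 73.2% and 81.9% of Pcdhg probes, in 58.6%, 68.4%, 63.9% and 69.5% of Pcdhb probes and in 65.9%, 73.4%, 69.0% and 79.0% of Pcdha probes on the KO decitabine, WT decitabine, KO untreated and WT untreated arrays. Its part in the differences of MeDIP signal was not tested.

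CpG density around the probe separated the subclusters further. Counted in the 500 bp around each probe on the mm9 genome, the median was 9.5 CpG in Pcdhg, 7 in Pcdha and 5 in Pcdhb, against 6 over all probes. Antibody enrichment is known to depend on the number of methylated CpG in a fragment, so probes were set side by side within classes of CpG density. Among probes with 10 or more CpG, the KO decitabine array had 26.8% of Pcdhg probes bright (68 of 254, 21.4% to 32.7%), 21.6% of Pcdhb probes (24 of 111, 14.4% to 30.4%) and 5.61% of Pcdha probes (6 of 107, 2.09% to 11.8%), against 14.1% of all such probes on the array. The WT decitabine array gave 18.1%, 12.6% and 8.41% for Pcdhg, Pcdhb and Pcdha, against 12.8% of all such probes. Within this class, Pcdhg lay above the share of all such probes on both decitabine arrays and Pcdha below it, with intervals that leave that share out for Pcdhg on both arrays, and for Pcdha and Pcdhb on the KO decitabine array alone.

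At low CpG density the order was another. Of probes with 0 to 4 CpG, none of 133 in Pcdhg was bright on any array, which allows a share of up to 2.74% by the exact interval. In Pcdhb, 2 and 1 of 211 such probes were bright on the KO and WT decitabine arrays, and none on the untreated arrays. In Pcdha, 4 and 3 of 96 were bright on the KO and WT decitabine arrays and 1 on each untreated array, against 5.97%, 5.06%, 1.65% and 2.10% of all probes of that class on the KO decitabine, WT decitabine, KO untreated and WT untreated arrays. On the untreated arrays, shares among CpG-rich probes of the 3 subclusters ran from 0.901% (Pcdhb, KO) to 4.72% (Pcdhg, KO), against 3.63% and 3.16% of all such probes on the KO and WT untreated arrays.

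**Figure D2:**
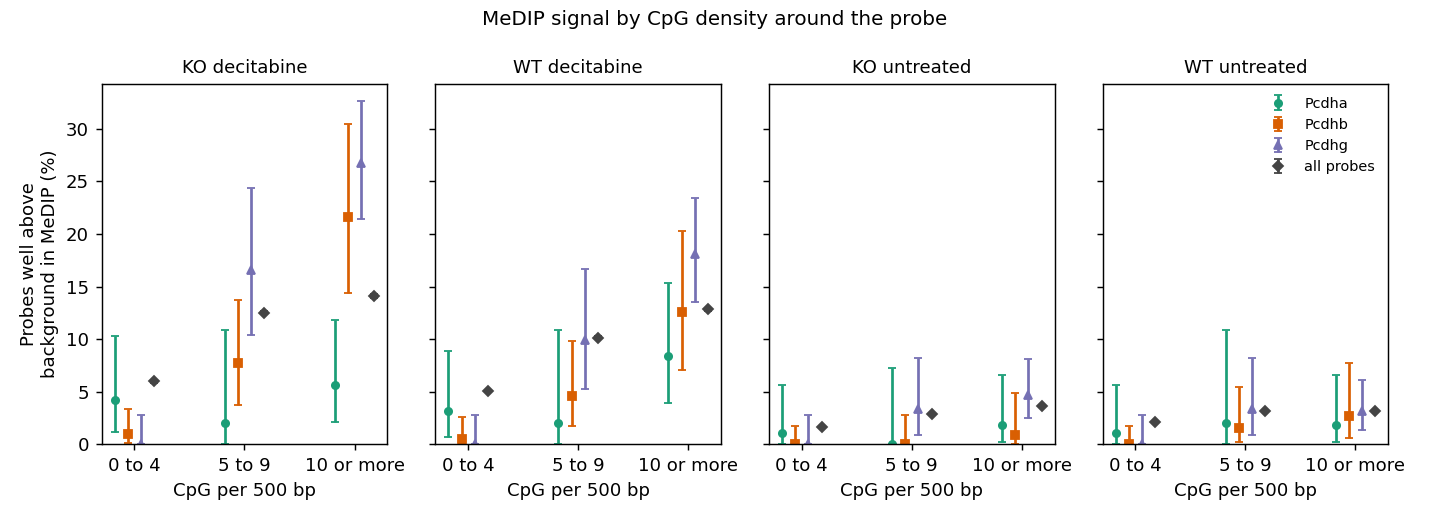
Share of bright probes (%) by the number of CpG in 500 bp, 1 panel per array; points are subclusters or all probes and bars are exact 95% binomial intervals. On the decitabine arrays CpG-rich probes of Pcdhg lie above all CpG-rich probes and those of Pcdha below them.

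Within Pcdhg and Pcdhb, bright probes were most frequent 1 to 2 kb downstream of the annotated start on the decitabine arrays. In these genes the long first exon, which encodes the extracellular domain, begins at the start. Gencode vM1 gives 11 distinct starts in Pcdha, 26 in Pcdhb and 10 in Pcdhg on mm9, so many Pcdhg genes have no annotated start here. In Pcdhg, 27 of 48 probes 1 to 2 kb downstream of a start were bright on the KO decitabine array (56.3%, 41.2% to 70.5%), 19 on the WT decitabine array (39.6%), 5 on the KO untreated array and 4 on the WT untreated array. In the first kb downstream, where the median CpG density is higher (24 against 15 CpG), the counts were 4, 6, 0 and 1 of 47 probes. From 2 to 3 kb they were 3, 2, 0 and 0 of 26 probes, and from 3 to 4 kb 3, 2, 0 and 0 of 10. In the last kb before a start they were 8, 2, 1 and 1 of 39 probes.

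Pcdhb showed the same position on the decitabine arrays, with 14 and 9 of 47 probes bright at 1 to 2 kb on the KO and WT arrays (29.8% and 19.1%), 13 and 7 of 86 in the first kb (15.1% and 8.14%), and 3 and 2 of 42 at 2 to 3 kb, at median CpG densities of 11, 10 and 6. Upstream of the starts few Pcdhb probes were bright, with 5 and 2 of 102 probes bright in the last kb before a start on the KO and WT decitabine arrays. Pcdha had no such peak: 1 of 31 probes was bright at 1 to 2 kb on each decitabine array and none on the untreated arrays, at a median of 17 CpG. Over all probes of the array, those 1 to 2 kb downstream of a protein-coding start were bright in 10.6% and 8.97% on the KO and WT decitabine arrays, and in 14.7% and 13.6% where they had 10 or more CpG.

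The 27 bright Pcdhg probes of the 1 to 2 kb step came from 8 genes, with Pcdhgb1 holding 5 of its 7 probes, Pcdhgb6 4 of 4, Pcdhgb8 4 of 5, Pcdhgc4 4 of 6 and Pcdhgc5 4 of 11 on the KO decitabine array. Median log2 ratios of the step were 1.54 and 1.51 on the KO and WT decitabine arrays, against 0.61 and 0.53 on the KO and WT untreated arrays (39 kept probes). Input was well above background in 87.5% and 89.6% of these probes on the KO and WT decitabine arrays and in 83.3% and 89.6% on the KO and WT untreated arrays, against 59.6% and 76.6%, and 66.0% and 80.9%, in the first kb. The position was noticed in these data and was not tested.

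**Figure D3:**
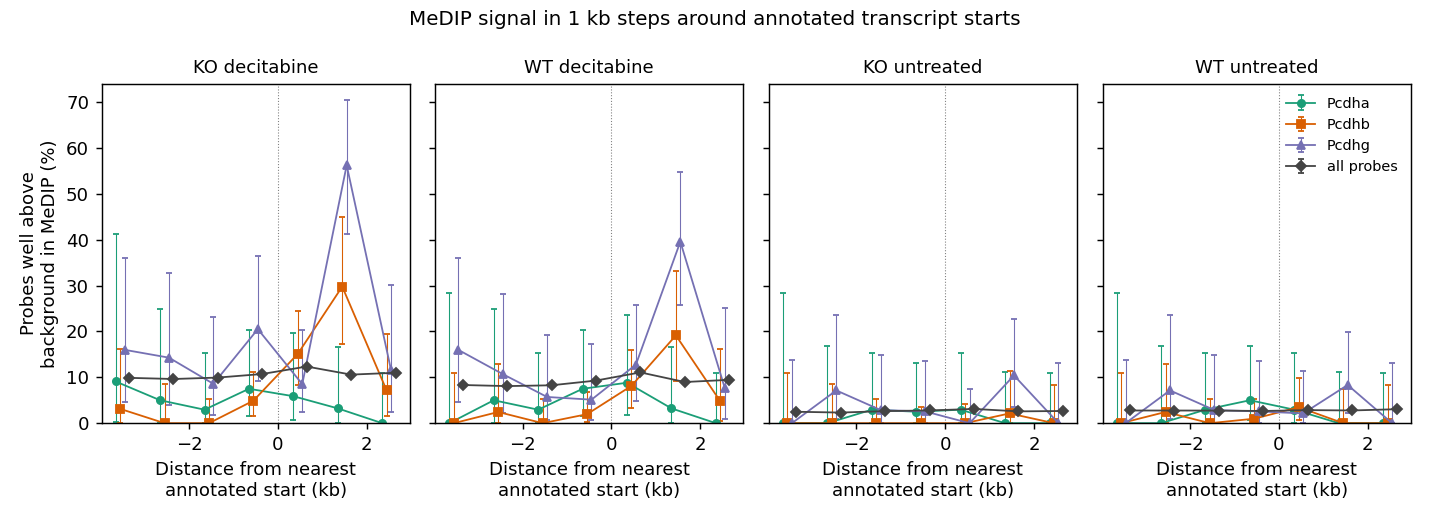
Share of bright probes (%) in 1 kb steps from the nearest annotated transcript start (kb, downstream positive), 1 panel per array; lines are subclusters or all probes and bars are exact 95% binomial intervals. Pcdhg and Pcdhb peak at 1 to 2 kb on both decitabine arrays, at 56.3% and 29.8% on the KO decitabine array, and Pcdha does not.

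Most probes of the locus were bright on no array, as on the array at large: 1218 of the 1414 probes (86.1%), against 87.3% of all probes. Bright on all 4 arrays were 17 probes (1.20%), against 1.75% of all probes, 7 of them in Pcdhg, 3 in Pcdha, none in Pcdhb and 7 in the upstream flank. Bright on both decitabine arrays and on neither untreated array were 32 probes of Pcdhg (6.30%), 12 of Pcdhb (2.65%) and 6 of Pcdha (2.38%), against 4.50% of all probes. Bright on the KO decitabine array alone were 36 probes of Pcdhg (7.09%), 21 of Pcdhb (4.65%) and 1 of Pcdha (0.397%), against 2.93% of all probes. Bright on the WT decitabine array alone were 6, 3 and 3 probes (1.18%, 0.664% and 1.19%), against 1.52% of all probes.

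Of the Pcdhg probes bright on all 4 arrays, the 3 with the highest mean ratio lay at Pcdhga4, Pcdhga12 and Pcdhga11. The Pcdhga4 probe (chr18:37840436-37840494, 12 CpG in 500 bp) lay in no annotated exon, and nor did any other of the 20 Pcdhga4 probes. It had log2 ratios of 3.69 and 3.80 on the KO and WT decitabine arrays, against 2.93 and 1.96 on the KO and WT untreated arrays. The Pcdhga12 probe (chr18:37922681-37922735, 13 CpG, in no annotated exon) had 2.65 and 2.71, against 2.24 and 2.96. The Pcdhga11 probe (chr18:37914196-37914251, 8 CpG) lay within 2500 bp upstream of an annotated start, which need not be that of Pcdhga11. None of the 17 Pcdhga11 probes lay in an annotated first exon, while 14 probes of the next gene, Pcdhgb8, did. The ratios of this Pcdhga11 probe were 2.66 and 2.82, against 1.73 and 1.86. All of these lay far above the median of 0 that each array was centred on.

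The 3 Pcdha probes bright on all 4 arrays had lower ratios, between -2.16 and 0.86. At Pcdhac1 a probe upstream of the start (chr18:37249559-37249603, 24 CpG) had 0.86 and -0.76 on the KO and WT decitabine arrays, against -0.81 and -0.95 on the KO and WT untreated arrays. A second Pcdhac1 probe upstream (chr18:37248055-37248099, 2 CpG) had 0.69 and 0.09, against -1.15 and -2.16. The Pcdha12 probe (chr18:37179910-37179954, 26 CpG, in the first exon) had -0.07 and -0.33, against -1.05 and -1.42. A bright probe can have a ratio below that of most probes where its input is bright too.

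Among Pcdhg genes the level varied widely. Gene levels are means of the log2 ratio over kept probes. The variable gene Pcdhga4 (chr18:37840243-37845002) was highest in the mean over the 4 arrays, with 1.53 and 1.52 on the KO and WT decitabine arrays, against 0.97 and 0.74 on the KO and WT untreated arrays (13 kept probes). On the WT untreated array it lay below Pcdhga1 (0.94) and Pcdhga9 (0.87). Of its 20 probes, 9 and 4 were bright on the KO and WT decitabine arrays and 3 and 2 on the KO and WT untreated arrays. Next in level were Pcdhga9, with 0.96 and 1.08, against 0.77 and 0.87, and Pcdhga11, with 1.32 and 1.19, against 0.74 and 0.35. The neighbouring order of Pcdhga9 and Pcdhga11 turned between arrays, as Pcdhga11 was higher on both decitabine arrays and lower on both untreated arrays.

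The lowest Pcdhg genes were Pcdhga6, Pcdhgb2 and Pcdhga7. Pcdhga6 had -0.37 and -0.28 on the KO and WT decitabine arrays, against -0.17 and 0.29 untreated, and Pcdhga7 had -0.15 and 0.07, against 0.25 and 0.45. Neither gene had a bright probe on any array, of 22 and 30 probes, and their median CpG densities of 3 and 5 were among the lower ones of Pcdhg. Pcdhgb2 had 0.13 and 0.42, against 0.04 and -0.07, with 1, 1, 1 and 0 bright probes of 22 on the KO decitabine, WT decitabine, KO untreated and WT untreated arrays.

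Among Pcdhb genes, Pcdhb17, Pcdhb22 and Pcdhb19 had the highest levels, which the count of bright probes did not follow. Pcdhb17 had 0.83 and 0.71 on the KO and WT decitabine arrays, against 0.88 and 0.88 on the KO and WT untreated arrays (17 kept probes), but 6 of its 18 probes were bright on the KO decitabine array and none on any other. Pcdhb22 had 0.48 and 0.79, against 0.54 and 0.53, with 1 bright probe on the KO decitabine array alone. Pcdhb19 had 0.34 and 0.71, against 0.33 and 0.76, with 5 and 2 bright probes of 30 on the KO and WT decitabine arrays and none untreated. No probe of these 3 genes was bright on an untreated array.

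The lowest Pcdhb levels were those of Pcdhb8, Pcdhb20 and Pcdhb12. Pcdhb8 had -0.02 and -0.19 on the KO and WT decitabine arrays, against -0.48 and -0.28 untreated, with 2 and 1 bright probes of 13 on the decitabine arrays. Pcdhb20 had -0.29 and -0.28, against -0.24 and 0.09, and Pcdhb12 -0.58 and -0.01, against -0.21 and 0.29. Neither of these 2 genes had a bright probe on any array, nor did Pcdhb6, Pcdhb9, Pcdhb10 and Pcdhb21.

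Of the Pcdha genes with at least 3 kept probes, Pcdha1, Pcdha2 and Pcdha4 had the highest mean levels and Pcdha5, Pcdha6 and Pcdhac1 the lowest. Pcdha1 (chr18:37086623-37089935) had 0.19 and 0.95 on the KO and WT decitabine arrays, against 0.81 and 1.20 on the KO and WT untreated arrays (6 kept probes), with none of its 8 probes bright on any array. Pcdha2 had 0.54 and 0.44, against 0.31 and -0.04, and Pcdha4 had 0.11 and 0.18, against 0.19 and 0.29. Each had a single bright probe on the KO decitabine array, and Pcdha2 also on the WT decitabine array. Pcdha5 had -0.63 and -0.62, against -1.04 and -1.0, on 4 kept probes with no bright probe, at 16 CpG per 500 bp. Pcdha6 had -0.14 and -0.02, against -0.15 and -0.22. Pcdha3 and Pcdhb6 had 1 kept probe each and were not tested.

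**Figure D4:**
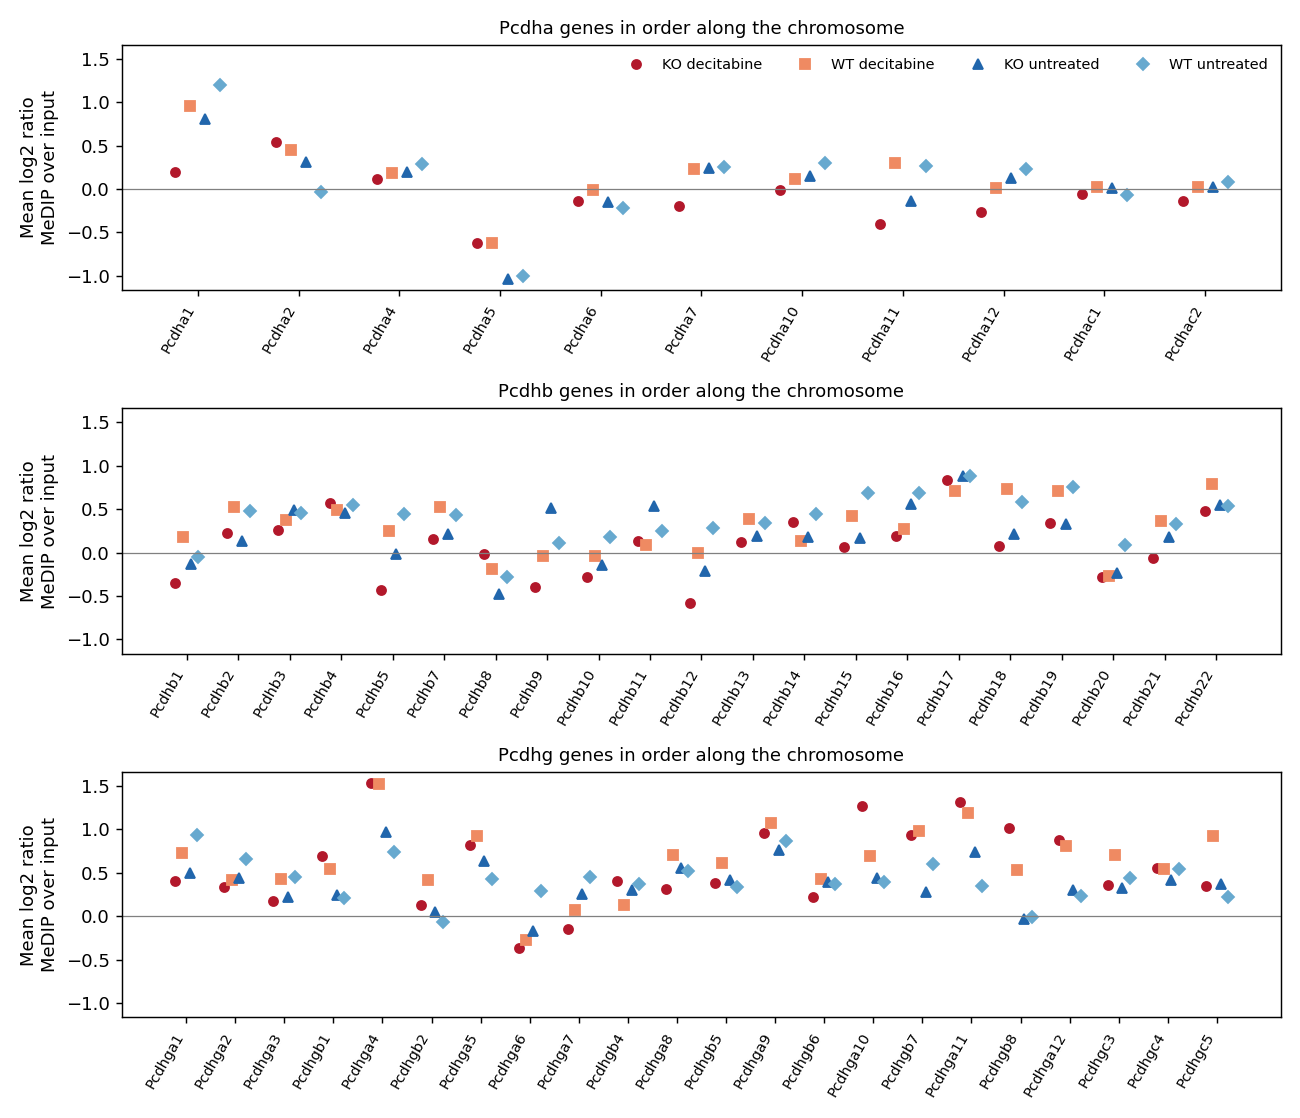
Mean log2 ratio of MeDIP over input for the 54 protocadherin genes with at least 3 kept probes, in chromosome order, 1 point per array; each array is centred on 0 and there is no replicate error. Genes from Pcdhga10 to Pcdhga12 lie higher on both decitabine arrays than on both untreated arrays.

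The C-type genes differed in level between Pcdha and Pcdhg. Pcdhac1 (chr18:37244498-37252213) had -0.06 and 0.02 on the KO and WT decitabine arrays, against 0.01 and -0.07 on the KO and WT untreated arrays, and Pcdhac2 had -0.15 and 0.02, against 0.02 and 0.07. The gamma C-type genes were higher: Pcdhgc3 had 0.35 and 0.70, against 0.33 and 0.44, and Pcdhgc4 had 0.56 and 0.54, against 0.41 and 0.55. Pcdhgc5 (chr18:37974749-37981700) had 0.35 and 0.93, against 0.37 and 0.22. The alpha C-type genes thus lay close to the array median, and the gamma C-type genes above it on every array. Of the 179 C-type probes, 12.3% and 10.1% were bright on the KO and WT decitabine arrays, near the 10.8% and 9.33% of all probes. On the KO and WT untreated arrays it was 1.68% and 2.79%, against 2.72% and 2.80% of all probes. These shares pool unlike genes. On the KO decitabine array, 2 of 35 Pcdhac1 and 2 of 46 Pcdhac2 probes were bright. There the counts were 3 of 25 for Pcdhgc3, 6 of 34 for Pcdhgc4 and 9 of 39 for Pcdhgc5.

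By list, the share of bright probes on the KO and WT decitabine arrays was 20.3% and 11.3% for Pcdhgb (7 genes), 43 and 29 of 277 probes for Pcdhga (12 genes), 7.96% and 4.65% for Pcdhb (22 genes) and 4.09% and 5.26% for the variable Pcdha genes (10 genes). On the KO and WT untreated arrays it was 3.76% and 2.26% for Pcdhgb, 3.61% and 2.17% for Pcdhga, 0.221% and 1.11% for Pcdhb and 0.585% and 1.17% for variable Pcdha. The 9 genes of the locus that are no protocadherins were brighter than each of these lists, at 21.3% and 14.4% on the KO and WT decitabine arrays and 5.45% and 4.95% on the KO and WT untreated arrays. Over all probes of the array the shares were 10.8% and 9.33% with decitabine and 2.72% and 2.80% untreated, in KO and WT.

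Decitabine arrays were then set against untreated arrays within each genotype. Median levels of Pcdha and Pcdhb were lower with decitabine in both genotypes, and those of Pcdhg slightly higher, although after loess the change of Pcdhg in KO was -0.05. Counts of bright probes in Pcdha and Pcdhb ran the other way. Bright with decitabine but not untreated were 8 Pcdha probes in KO and 9 in WT, and 35 and 16 Pcdhb probes. The reverse held for 0 probes of either. Over all probes these counts were 42637 in KO and 35782 in WT, against 545 and 1748 for the reverse. The median change over kept probes was -0.33 in KO and -0.26 in WT for Pcdha, -0.26 and -0.20 for Pcdhb, and 0.11 and 0.12 for Pcdhg, against -0.03 and -0.05 for all kept probes of the array. These directions are relative to the median of each array. With arrays centred instead on the 8999 probes whose MeDIP and input were both bright on each of the 4 arrays, all kept probes moved by -0.81 in KO and -0.52 in WT, and Pcdhg by -0.67 and -0.35. Relative to all kept probes Pcdhg was higher by 0.14 in KO and 0.18 in WT, while Pcdha was lower by 0.29 and 0.21; a change of centring shifts all probes of an array alike and cannot alter these. With normexp the values for Pcdhg were -0.01 and -0.01, and after loess 0.01 in KO and 0.13 in WT. Those for Pcdha were -0.10 and -0.23 with normexp, and -0.01 in KO and 0.05 in WT after loess. For Pcdhb, at -0.22 in KO and -0.15 in WT, they were -0.22 and -0.28 with normexp and -0.03 and 0.06 after loess.

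MeDIP signal was replaced by a surrogate value at 53.1% and 49.7% of kept Pcdha probes and at 41.8% and 40.9% of kept Pcdhb probes on the KO and WT decitabine arrays. On the KO and WT untreated arrays the shares were 70.7% and 72.8% for Pcdha and 54.4% and 59.1% for Pcdhb. Over all kept probes of the array they were 58.9% and 60.8%. At most kept probes of Pcdha and Pcdhb the untreated ratio is thus a background level over input. Median MeDIP signal alone, centred on its own array median, changed by -0.62 in KO and -0.47 in WT for Pcdha and by -0.42 and -0.47 for Pcdhb, against -0.27 and -0.36 for all kept probes. Input changed by 0.05 and 0.00 for Pcdha and by 0.11 and 0.06 for Pcdhb. With loess within each array, the median change was -0.07 and -0.01 for Pcdha and, in WT, -0.0022 for Pcdhb. All kept probes then changed by -0.06 in KO and -0.06 in WT. The part of background signal and of input in these changes was not tested.

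At the few probes bright on both arrays most ratios were higher with decitabine, Pcdhb in WT excepted. In KO, 3 of 3 such probes of Pcdha, 1 of 1 of Pcdhb and 13 of 16 of Pcdhg had higher ratios with decitabine (median changes 1.67, 0.04 and 0.74), against 12251 of 13503 over all probes (median 0.86). In WT the counts were 3 of 3, 2 of 5 and 7 of 11 (medians 1.10, -0.18 and 0.55), against 8637 of 12514 (median 0.42). These are probes that had already passed the flag on the untreated array, so they are few and not a sample of the locus.

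A call between 2 arrays asked for a 2-fold difference in gene value, shared in direction by 80% or more of the gene's probes. With gene values taken over all probes of a gene, inside and outside the locus, no gene of the locus was called. Over its 5 kept probes in the locus alone, Tmco6 met this rule with decitabine in WT (1.17 on the log2 scale, higher at 100% of them). In KO, 0 of 63 tested genes were higher with decitabine and 0 lower, against 0.666% and 0.0491% of all 18332 genes. In WT the counts were also 0 and 0, against 0.649% and 0.0927% of all genes. A count of 0 is near these background shares and is no result about the locus.

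The largest rises in value in KO were those of Pcdhgb8, Pcdhga10 and Pcdhgb7, which lie with Pcdhga11 and Pcdhga12 at the 3' end of the variable Pcdhg genes. Pcdhgb8 had 1.01 and 0.53 on the KO and WT decitabine arrays, against -0.04 and -0.01 on the KO and WT untreated arrays. Pcdhga10 had 1.27 and 0.70, against 0.44 and 0.39, and Pcdhgb7 had 0.94 and 0.98, against 0.27 and 0.60. None of the 3 had a kept bright probe on an untreated array, so no fold is given between 2 arrays.

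In WT the largest rises in value were those of Tmco6, Pcdhga11 and Pcdhga4. Pcdhga11 was higher with decitabine by 0.84 on the log2 scale in WT and by 0.58 in KO, and Pcdhga4 by 0.78 and 0.57, both with bright probes on all 4 arrays. Tmco6, which encodes a transmembrane protein with coiled coils, lies at the upstream edge of the locus, where 5 of its kept probes fall. Over these it had 1.74 and 1.31 on the KO and WT decitabine arrays, against 1.14 and 0.14 on the KO and WT untreated arrays.

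The largest falls in value with decitabine were those of Pcdhb9, Pcdha1 and Pcdha7 in KO and of Pcdhga6, Pcdhb16 and Pcdhga7 in WT. Pcdhb9 had -0.40 and -0.04 on the KO and WT decitabine arrays, against 0.51 and 0.10 on the KO and WT untreated arrays, on 4 kept probes. Pcdha7 had -0.19 and 0.22, against 0.24 and 0.25, and Pcdhb16 had 0.19 and 0.27, against 0.56 and 0.69. None of the 6 genes had a kept bright probe on an untreated array, so no fold is given for a fall. Pcdha7 and Pcdhb16 had kept bright probes on the decitabine arrays.

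Across both genotypes decitabine was tested with limma in an additive model over the 4 arrays, whose single residual degree of freedom is the interaction with genotype. Its p-values thus test the size of an effect against an error taken from departure from additivity. That error is moderated over all genes by eBayes and holds no spread between replicates. Of 63 genes, 7 rose (adjusted p under 0.05 over all 18332 genes), against 11% of all genes, and none fell, against 3.5% of all genes. At an unadjusted p under 0.05, 23 genes of the locus passed. No share of all genes was taken at that cutoff, so this count and later ones at it are no result about the locus. The 7 were Pcdhga4, Pcdhga10, Pcdhga11, Pcdhga12, Pcdhgb7, Pcdhgb8 and Tmco6, so that 6 of 22 Pcdhg genes and none of the Pcdha or Pcdhb genes passed. A count of 7 of 63 is near the background share.

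By limma Pcdhgb8 rose by 0.80 (SE 0.14, adjusted p = 0.010) and Pcdhga11 by 0.71 (SE 0.13, adjusted p = 0.010). Pcdhga4 rose by 0.67 (SE 0.12, adjusted p = 0.011) and Pcdhga12 by 0.58 (SE 0.12, adjusted p = 0.016). Of the 36 probes of Pcdhga12, 6 and 7 were bright on the KO and WT decitabine arrays and 2 on each untreated array. Pcdhga10 rose by 0.57 (SE 0.15, adjusted p = 0.032), Pcdhgb7 by 0.52 (SE 0.13, adjusted p = 0.028) and Tmco6, over all its probes inside and outside the locus, by 0.57 (SE 0.12, adjusted p = 0.019). Each was higher with decitabine in both genotypes. With each array centred on the bright probes, 0 genes of the locus rose and 42 fell, against 70 and 10858 of all genes, and after loess none passed in either direction, with 10 at an unadjusted p under 0.05. The sizes for Pcdhga10, Pcdhgb7 and Tmco6 turned to -0.05, -0.10 and -0.05 on the bright-probe centring, and Pcdhga10 to -0.15 after loess.

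KO arrays were set against WT arrays within each treatment. Median levels of all 3 subclusters were lower in KO. Untreated, the direction turned for Pcdhg after loess (0.01) and with normexp (0.02) and for Pcdha with centring on bright probes (0.01). The median change was -0.28 with decitabine and -0.18 untreated for Pcdhb, -0.19 and -0.03 for Pcdha, and -0.14 and -0.06 for Pcdhg, against -0.00 and 0.04 for all kept probes. Input of Pcdhb was higher in KO by 0.27 with decitabine and by 0.21 untreated, against -0.04 and -0.00 for all kept probes, while MeDIP signal changed by -0.08 and 0.03, against -0.08 and 0.02 for all kept probes. After loess the change of Pcdhb was -0.09 and -0.03. The part of the input in the change of Pcdhb was not tested.

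With decitabine, counts of bright probes in Pcdhb and Pcdhg ran the other way. More probes of Pcdhb were bright in KO (36) than in WT (21), and more of Pcdhg (88 against 58), whereas Pcdha had 11 in KO and 13 in WT. Untreated, Pcdhg had 16 in KO and 12 in WT, Pcdhb 1 and 5, and Pcdha 3 and 4. Among probes bright on both arrays of a treatment, KO was higher at 30 of 52 in Pcdhg, 4 of 15 in Pcdhb and 6 of 9 in Pcdha with decitabine, against 28739 of 39846 over all probes.

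Between genotypes, too, no gene of the locus passed 2-fold. With decitabine, 0 of 63 genes were higher in KO and 0 lower, against 0.458% and 0.104% of all genes. Untreated, 0 were higher and 0 lower, against 0.196% and 0.164% of all genes. With decitabine the largest rises in value in KO were those of Pcdhga10 (0.57), Pcdhgb8 (0.48) and Tmco6 (0.42), all with bright probes on both arrays, and the largest falls those of Pcdha1, Pcdha11 and Pcdhb5. Untreated they were Tmco6, Pcdhb9 and Pcdhga11 (0.39) for a rise, and Pcdhb15, Pcdhb12 and Pcdhb5 for a fall.

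By limma, 0 of 63 genes of the locus rose in KO, against 2.01% of all genes, and 4 fell, against 2.1% of all genes. At an unadjusted p under 0.05, 12 passed, with no share of all genes to set beside that count. The 4 were Pcdhb5 (-0.57, SE 0.12, adjusted p = 0.036), Pcdhb12 (-0.53, SE 0.12, adjusted p = 0.040), Pcdha11 (-0.56, SE 0.13, adjusted p = 0.043) and Pcdha1 (-0.58, SE 0.13, adjusted p = 0.044). Each was lower in KO under both treatments. Pcdhb15 did not pass (-0.44, SE 0.12, adjusted p = 0.075). On no array did Pcdhb5, Pcdhb12 or Pcdha1 have a kept bright probe, so no fold is given between 2 arrays. Their limma sizes are those of ratios whose MeDIP term was nowhere well above background. A change of methylated DNA could not be measured there. Pcdha11 had 1 kept bright probe on each decitabine array and none untreated.

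Pcdhb5 had -0.43 and 0.25 on the KO and WT decitabine arrays, against -0.02 and 0.45 on the KO and WT untreated arrays. Pcdha11 had -0.40 and 0.30, against -0.14 and 0.27, and Pcdhb15 had 0.06 and 0.42, against 0.17 and 0.68. In all 4 genes that passed, input was higher in KO, by 0.70 and 0.38 at Pcdha1, 0.69 and 0.42 at Pcdhb12, 0.47 and 0.29 at Pcdha11 and 0.25 and 0.40 at Pcdhb5, with decitabine and untreated. After loess, and with each array centred on the bright probes, none of the locus passed, with 11 and 9 genes at an unadjusted p under 0.05.

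In the upstream flank, most genes had higher levels with decitabine in both genotypes, as did most genes of the array. Zmat2, a zinc finger protein, had 0.70 and 0.61 on the KO and WT decitabine arrays, against 0.28 and 0.25 on the KO and WT untreated arrays, with 9, 8, 4 and 3 bright probes of 24. Hars2, the mitochondrial histidyl-tRNA synthetase, had 0.83 and 0.66, against 0.58 and 0.35, and Hars, the cytosolic enzyme, 0.47 and 0.44, against 0.28 and 0.11. Of the 9 genes that are no protocadherins, 8 in KO and 7 in WT were higher with decitabine, against 11385 in KO and 11486 in WT of all 18332 genes. Tmco6 alone of the 9 passed limma. Taf7, a subunit of the general transcription factor TFIID, had 4, 1, 0 and 0 bright probes of 31 on the KO decitabine, WT decitabine, KO untreated and WT untreated arrays.

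Protocadherins outside the clusters and genes that act on clustered promoters were read on the same arrays. Of 12 such protocadherins 10 were tested (all but Pcdh9 and Pcdh15), and none passed limma for decitabine, against 11% of all genes higher and 3.5% lower, or for genotype, against 2.01% and 2.1%. Their probes were denser in CpG (median 18) and bright in 8.45% and 5.80% on the KO and WT decitabine arrays, against 2.17% and 2.66% on the KO and WT untreated arrays. All probes of the array were bright in 10.8% and 9.33% with decitabine and in 2.72% and 2.80% untreated. Those with 10 or more CpG were bright in 14.1% and 12.8% on the KO and WT decitabine arrays. Of the 12 genes that act on clustered promoters, among them Ctcf, the cohesin genes Rad21, Smc1a and Smc3, and Smchd1 and Dnmt3b, none passed either test. With so few genes a count of 0 is near these shares and is no result about either list. Dnmt3b, the de novo DNA methyltransferase, had 0, 1, 0 and 0 bright probes of 29 on the KO decitabine, WT decitabine, KO untreated and WT untreated arrays, and Smchd1, a chromatin protein of silenced loci, none of 41 on any array.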

How the data were processed

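Scanner output of 4 arrays was used. The deposited intensities are linear processed signals, background-subtracted and dye-normalized per the file headers, and were written by Agilent's Feature Extraction software, which the submitters' processing notes also name. The log10 ratio deposited per spot (Cy5 over Cy3) served as an alternative. The authors' deposited log2 value table was only compared with it: of 357133 table rows holding 3 or more values other than 0, 357090 match the negative log ratio, turned to log2 units, to 3 decimals. Its identifiers match no probe column, so it was used no further.

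From the processed signals log2 ratios of MeDIP over input were taken with pseudocount 0, spots of a probe averaged, and each array centred on the median of its 328399 kept probes, with no loess or quantile step. Gene values are means over at least 3 kept probes (18332 genes). A gene change is given a size only where a kept probe was bright on both arrays, or as a size of the limma fit where the text says so. Coordinates and CpG counts are of mm9; all 1414 probe sequences match it, 4 have a copy at least 90% identical within the locus (BLAST 2.17.0), and none was saturated. Starts are those of Gencode vM1; over all probes, protein-coding transcript starts. Subclusters begin up to 6000 bp before the first annotated gene, and genes carry the names given in the scanner files.

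Comparisons of 2 arrays used no test. Decitabine and genotype were tested with limma 3.58.1 (R 4.3.3, lmFit and eBayes, additive model over 4 arrays, Benjamini-Hochberg), tested on simulated data. Subclusters were compared within arrays with an exact sign-flip permutation test (scipy 1.17.1). Named genes were the C-type genes, per subcluster the 3 highest and 3 lowest in mean ratio, and per comparison the 3 largest rises and falls. Named probes were those bright on all 4 arrays, at most 3 per subcluster. Alternatives were the probe filter, normexp with offset 50, the deposited log ratio, loess, centring on bright probes, 17 bins of CpG density, means or medians, subclusters by gene name, and at least 5 probes. The members, lists and tests were chosen with earlier results of these data known.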

Additional observations from a re-analysis of the deposited data

Results flagged for a closer look

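At 2 C-type genes the values for decitabine over untreated differed in sign between KO and WT, each gene with bright probes on all 4 arrays. At Pcdhgc5 the value was -0.0204 in KO and 0.707 in WT, on the log2 scale over 31 kept probes. At Pcdhac1 it was -0.0726 in KO and 0.0906 in WT over 20 kept probes. With 1 array a group the difference between the genotypes was not tested, and neither gene passed limma for decitabine (adjusted p = 0.181 for Pcdhgc5 and 0.967 for Pcdhac1). Of the 10 protocadherin genes with kept bright probes on all 4 arrays, Pcdhgb5 (-0.04 in KO, 0.27 in WT) and Pcdhgb6 (-0.17 and 0.06) also differed in sign.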

How the results depend on the processing

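No paired analysis was possible because each group has 1 array and the groups share fewer than 2 replicate numbers, and for the same reason no array could be left out. The order of Pcdhg above Pcdha held under each alternative run (0.25 to 0.45). Pcdhg minus Pcdhb turned to -0.089 without the probe filter (0.12 to 0.26 under the others). Centred on bright probes, decitabine changes in KO and WT were -1.10 and -0.73 for Pcdha, -1.03 and -0.67 for Pcdhb and -0.67 and -0.35 for Pcdhg, and KO over WT with decitabine was -0.44, -0.54 and -0.40. There 0 genes of the locus rose with decitabine and 42 fell, against 70 and 10858 of all genes. By limma 0 fell in KO, against 161 of all genes. The 2-fold falls numbered 13 with decitabine in KO, 1 with decitabine in WT and 1 in KO over WT with decitabine. All kept probes moved by -0.81, -0.52 and -0.26 in these comparisons. The 2-fold share of all genes was not taken on this centring, so these counts are no result about the locus. Limma sizes for decitabine turned to -0.55 at Pcdhgc4, -0.52 at Pcdha6, -0.61 at Pcdhac1, -0.53 at Pcdhb22, -0.48 at Pcdhgc3, -0.054 at Pcdhga10, -0.10 at Pcdhgb7 and -0.053 at Tmco6. After loess, 0 genes rose with decitabine, 0 fell in KO, and Pcdhga10 turned to -0.15. Decitabine changes were then -0.067 in KO and -0.0093 in WT for Pcdha and -0.0022 in WT for Pcdhb, and KO over WT was -0.094 with decitabine and -0.034 untreated for Pcdhb. With normexp, 0 genes rose and 2 fell with decitabine, against 489 and 155 of all 18332 genes. Pcdha then changed by -0.065 in KO and -0.16 in WT. From the deposited log ratio, 12 rose and 1 fell with decitabine, against 2931 and 357 of all 18332 genes. Pcdhb then changed by -0.050 with decitabine in KO. In CpG bins Pcdhb changed by -0.069 with decitabine in KO and by -0.16 in KO over WT with decitabine. As means over probes, decitabine changes in WT were -0.033 for Pcdha and -0.056 for Pcdhb. Medians per gene left 4 risen with decitabine, against 752 of all genes. With at least 5 probes 3 fell with decitabine, against 809 of all 17318 genes. Without the probe filter 4 fell with decitabine and 11 in KO, against 723 and 1291 of all 18939 genes. Over probes with input bright on all 4 arrays, shares on the KO and WT decitabine arrays were 26.2% and 18.3% for Pcdhg and 13.9% and 8.86% for Pcdhb. Causes of these moves were not tested. Of all genes, 2652 passed for decitabine and 754 for genotype, against 10928 and 249 centred on bright probes, 0 and 5 after loess, 644 and 609 with normexp, 1051 and 451 with medians, and 3068 and 2801 without the probe filter. Leaving out the 4 probes with a near-identical copy, chosen after seeing the data, moved the subcluster differences to 0.38, 0.16 and 0.22.

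Signal over background limits the locus as it does the whole array: 1218 of 1414 probes of the locus (86.1%) were bright on no array, against 87.3% of all probes. There a change of methylated DNA could not be measured.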
